A study of Mus musculus with 41 samples.

Results

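Trimethylation of lysine 27 of histone H3 (H3K27me3) was compared between mouse embryonic stem cells kept in serum (mESC-ser) and in 2i medium (mESC-2i). The deposited H3K27me3 peak lists of both media were merged on chromosomes 1 to 19 and X, and every merged region was classed as serum-only, 2i-only or shared, where an overlap of 1 bp made a region shared. The merge gave 35728 regions, while a merge of all 24 peak lists of the series gave 117116.

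All cells were of the E14 mouse embryonic stem cell line, and the profiles came from CUT&Tag, a method that cuts and tags DNA beside an antibody-bound histone mark with a tethered transposase, done on whole cells with sodium butyrate in the buffers of both groups. The mESC-ser cells, which the study calls primed, grew on gelatin in medium with fetal bovine serum and leukemia inhibitory factor (LIF). The mESC-2i cells, which it calls naïve, grew without serum in N2B27 with LIF, the MEK inhibitor PD0325901 and the GSK3 inhibitor CHIR99021. Each medium had 2 samples labelled as biological replicates. The authors pooled them before calling peaks, so each medium is 1 list, there is no replicate check, and no difference below was tested between media. The samples of the media were deposited in separate blocks with differently named label fields, and no source used here says whether they were prepared together, so medium and preparation cannot be told apart in any difference below. Intervals in brackets are 95% Wilson intervals on shares and cover counting error only.

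H3K27me3 is written by Polycomb repressive complex 2 (PRC2) and is found where genes are kept silent. In embryonic stem cells it lies over CpG-rich promoters of developmental regulators, where it can occur together with H3K4me3, the mark of active or poised promoters; such promoters are called bivalent. The inhibitors of 2i block ERK signalling and stabilise β-catenin, the effector of the Wnt pathway, and hold cells in a state close to the pre-implantation epiblast.

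The promoter calls of marker genes were checked against the labels. All 8 stem cell markers (among them Pou5f1, Nanog, Sox2 and Zfp42) carried H3K4me3 and H3K18 lactylation (H3K18la, a mark of active promoters and enhancers) at a promoter in both media, and none carried H3K27me3 in either list. Of 10 fibroblast markers, 4 carried H3K4me3 in each medium and 6 carried H3K27me3 in mESC-ser and 7 in mESC-2i, and H3K27ac, which was profiled in mESC-ser, was called at none of them. H3K4me3 lay at Col1a1, Thy1, Twist2 and Pdgfra in both media, and H3K18la at Thy1 and Pdgfra in mESC-ser and at Pdgfra and Lum in mESC-2i.

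The promoters below show the DNA under each class. Each is the stretch of 250 bases before a transcription start site (TSS), 5′ to 3′ on the strand of the gene, copied from RefSeq promoters of build GRCm38.p6, with every CpG in capitals. Zmiz1 (chr14:25458935-25459184, plus strand, 25 CpGs) lies in the widest serum-only region at a coding promoter, Lmx1b (chr2:33641099-33641348, minus strand, 19 CpGs) in one of the widest shared regions, and Arsg (chr11:109543461-109543710, plus strand, 6 CpGs, an internal start of the gene) in the widest 2i-only region. Lef1 (chr3:131110047-131110296, plus strand, 11 CpGs) and Hnf4a (chr2:163546905-163547154, plus strand, 4 CpGs) are 1 serum-only and 1 2i-only gene out of several in the lists described further on, and both were added after their values were seen.
Zmiz1: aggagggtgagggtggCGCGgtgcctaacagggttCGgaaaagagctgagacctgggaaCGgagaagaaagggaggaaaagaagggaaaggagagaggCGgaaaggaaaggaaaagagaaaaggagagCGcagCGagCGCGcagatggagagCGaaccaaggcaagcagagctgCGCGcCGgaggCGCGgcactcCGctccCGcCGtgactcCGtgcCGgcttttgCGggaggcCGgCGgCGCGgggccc
Lef1: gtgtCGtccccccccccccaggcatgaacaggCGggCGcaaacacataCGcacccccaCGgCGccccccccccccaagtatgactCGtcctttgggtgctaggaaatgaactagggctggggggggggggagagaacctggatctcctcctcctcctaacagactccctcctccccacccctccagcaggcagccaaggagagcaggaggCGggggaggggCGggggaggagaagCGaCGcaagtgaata
Lmx1b: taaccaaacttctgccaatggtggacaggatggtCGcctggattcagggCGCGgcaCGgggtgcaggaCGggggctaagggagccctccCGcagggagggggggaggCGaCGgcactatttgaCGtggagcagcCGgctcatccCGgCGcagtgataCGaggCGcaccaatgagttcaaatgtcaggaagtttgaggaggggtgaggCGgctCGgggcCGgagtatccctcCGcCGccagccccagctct
Arsg: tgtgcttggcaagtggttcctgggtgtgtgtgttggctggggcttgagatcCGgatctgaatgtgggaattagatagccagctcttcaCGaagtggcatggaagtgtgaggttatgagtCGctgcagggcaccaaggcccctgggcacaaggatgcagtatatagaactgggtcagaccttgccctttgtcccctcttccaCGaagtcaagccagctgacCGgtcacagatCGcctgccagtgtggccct
Hnf4a: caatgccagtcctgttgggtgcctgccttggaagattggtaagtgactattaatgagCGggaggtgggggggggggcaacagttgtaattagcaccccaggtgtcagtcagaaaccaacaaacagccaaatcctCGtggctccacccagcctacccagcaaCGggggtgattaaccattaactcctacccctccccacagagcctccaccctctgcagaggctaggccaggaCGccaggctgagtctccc

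The lists held similar numbers of peaks and different numbers of bases. mESC-ser had 24436 peaks over 86.6 Mb (3.29% of the genome used) and mESC-2i had 24613 peaks over 145 Mb (5.51%). The median peak was 2296 bp wide in mESC-ser and 4179 bp in mESC-2i. Total signal, the coverage summed over the bases of a peak, was not scaled for depth by the authors, so it was compared within a list, apart from 1 ranking of shared regions by the sum over both lists that is named as such below. The smallest total signal in a list was 13985 in mESC-ser and 30411 in mESC-2i, and 51.9% and 49.4% of peaks lay under 2 times that minimum. A region missing from a list may therefore carry signal below what the peak caller kept, and the class names say only in which list a peak was present.

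Of the merged regions, 10320 were shared (28.9% [28.4 to 29.4]), 11762 were serum-only (32.9% [32.4 to 33.4]) and 13646 were 2i-only (38.2% [37.7 to 38.7]). These counts depended on the list size. With the mESC-2i list cut to the bases of the mESC-ser list, 16863 regions were serum-only, 2647 were 2i-only and 5396 were shared, so that serum-only regions then outnumbered 2i-only ones, and with the 5000 strongest peaks of each list the counts were 2554, 2687 and 2208. In the full lists, shared regions covered most bases, 89.1 Mb, against 65.4 Mb for 2i-only and 27.5 Mb for serum-only regions. The bases called in both lists made up 57.3% of the mESC-ser bases and 34.2% of the mESC-2i bases, and the base-pair Jaccard index was 0.273. H3K27me3 had the least overlap of the 3 marks profiled in both media, since 55.3% [54.6 to 56.0] of H3K4me3 regions and 50.1% [49.5 to 50.7] of H3K18la regions were shared. For H3K4me3 308 of 19278 merged regions were serum-only and for H3K18la 4555 of 24233.

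**Figure D1:**
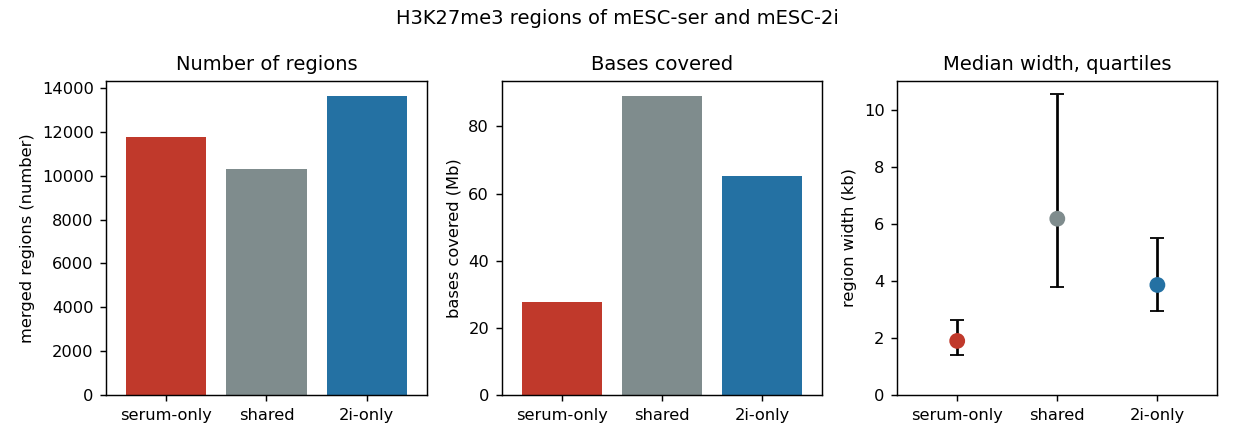
Number of merged H3K27me3 regions, bases covered in Mb, and region width in kb (points are medians, bars span the lower to the upper quartile) for serum-only, shared and 2i-only regions. With the full lists the classes hold 10320 to 13646 regions, while with the mESC-2i list cut to equal bases 2647 are 2i-only and 16863 serum-only. The shared regions cover 89.1 Mb and have the largest median width, 6182 bp.

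Peaks in a single list were narrower than those in shared regions and lay lower in the signal order of their own list. Median widths were 1894 bp for serum-only, 3858 bp for 2i-only and 6182 bp for shared regions, which join peaks of both lists and are wider by construction. Peak by peak, those within shared regions had a median width of 2989 bp in mESC-ser, against 1894 bp for serum-only peaks, and of 4932 bp in mESC-2i, against 3858 bp for 2i-only peaks. Widths over 10000 bp were reached by 108 serum-only, 841 2i-only and 2821 shared regions. In the mESC-ser list the serum-only peaks had a median total-signal percentile of 37.2 and the peaks in shared regions one of 64.7, and in the mESC-2i list the values were 38.0 for 2i-only peaks and 67.3 for shared ones. Of the 2444 peaks in the strongest 10% of mESC-ser, 191 were serum-only, and of the 2462 in that share of mESC-2i, 369 were 2i-only. Most of the strongest peaks of a list thus overlapped some peak of the other full list by at least 1 bp, weak ones included. When the 5000 strongest peaks of each list were compared with each other, 2208 regions (29.6%) were shared.

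Within shared regions the marked stretch was wider in mESC-2i in 7100 of 10320 regions (68.8% [67.9 to 69.7]), with a median of 3676 bp called in mESC-ser and 5210 bp in mESC-2i. The fusion of neighbouring peaks went mainly the same way: 1560 regions joined several mESC-ser peaks to a single mESC-2i peak, and 370 the reverse. The widening was seen mainly away from promoters and from H3K4me3. Distal shared regions had a median log2 ratio of mESC-2i to mESC-ser bases of 0.61 (2662 and 4525 bp), and those at a promoter one of 0.12 (5301 and 6167 bp). The 7137 shared regions without an H3K4me3 peak in either medium had a median log2 ratio of 0.60, and 78.9% of them were wider in mESC-2i. For the 3183 with an H3K4me3 peak the median was -0.03, and 46.1% were wider in mESC-2i. That last median stood at 0.0094 when the mESC-2i list was cut to as many bases as the mESC-ser list and at 0.051 with the 5000 strongest peaks of each list, so its sign depended on the list size, whereas the regions without H3K4me3 stayed above 0 (1.08 and 0.40).

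The classes differed in where they lay. A promoter, defined as 2000 bp on each side of an annotated TSS, was touched by 52.4% [51.4 to 53.3] of shared, 31.6% [30.8 to 32.5] of serum-only and 21.5% [20.8 to 22.2] of 2i-only regions, and this order held under every alternative list size and promoter definition tried. The gap between serum-only and 2i-only regions did depend on the list size, with 34.0% and 31.1% at equal bases and 71.3% and 40.7% with the 5000 strongest peaks of each list. Shares over whole regions count any touch, and a wider region touches a promoter or exon more readily. A 500-bp window at the peak maximum, described below, touched a promoter in 40.8% of shared, 27.2% of serum-only and 13.5% of 2i-only regions. Regions off promoters that touched an exon made up 17.3% of 2i-only, 11.6% of shared and 7.13% of serum-only regions. Intronic regions made up 26.8% of 2i-only, 11.1% of shared and 21.2% of serum-only regions, and intergenic ones 34.4%, 25.0% and 40.0%. The median distance to the nearest TSS was 11754 bp for 2i-only, 6712 bp for serum-only and 1281 bp for shared regions. Within 100000 bp on each side there was no coding gene for 32.4% of 2i-only, 28.4% of serum-only and 18.3% of shared regions. The median distance to the nearest shared region was 30481 bp from a 2i-only and 44078 bp from a serum-only region. Within 10000 bp of a shared region the order was the reverse, with 27.1% of 2i-only and 30.5% of serum-only regions.

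Base composition was compared in 1 window of 500 bp per region, so that width did not enter. The window lay at the maximum of the region's peak of largest total signal. In shared regions the mESC-ser peak was always used, also for the marks of mESC-2i below. Of shared regions with 1 peak from each list, 61.4% had the maxima of both lists within 500 bp. A CpG-rich window, defined by a GC content of 55% or more and a CpG count at least 0.65 times that expected from its C and G content, was found in 10.9% [10.3 to 11.5] of shared, 5.40% [5.00 to 5.82] of serum-only and 0.256% [0.184 to 0.356] of 2i-only regions. All classes had more CpGs than the genome, which held 0.834 per 100 bp, since the windows had medians of 2.2 in shared, 1.2 in serum-only and 1.4 in 2i-only regions. By that median 2i-only windows were above serum-only ones, although a smaller share of them was CpG-rich. Coding genes with H3K27me3 at a promoter in mESC-2i only had CpG-poorer promoters. In the 300 bases around the TSS (250 before and 50 after, CpG-richest TSS of the gene) they held a median of 7 CpGs, against 21 for genes called in mESC-ser only, 21 for genes called in both media and 18 over all coding genes. At most 5 CpGs were found at 33.0% [30.0 to 36.2] of the former, at 13.7% [12.2 to 15.4] of serum-only genes and at 10.0% [9.14 to 11.0] of genes called in both. The share in mESC-2i-only genes was near the 31.3% [30.5 to 32] of coding genes without promoter H3K27me3, and over all coding genes it was 25.9%. Over the 300 bases the classes overlap, with quartiles of 10 and 33 CpGs for serum-only genes and 5 and 15 for 2i-only genes. In the 250 bases before the TSS, the serum-only gene Lef1 has 11 CpGs and the 2i-only genes Hnf4a and Elf5 have 4 and 8. The Elf5 stretch lies outside the strongest mESC-2i peak at its promoters. Zmiz1, Lmx1b and Arsg are genes called in both media and have 25, 19 and 6.

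H3K4me3 followed the order of the promoter shares and the CpG-rich shares. In the 500-bp window, an H3K4me3 peak of mESC-2i was present at 26.1% [25.3 to 27] of shared, 15.0% [14.4 to 15.6] of serum-only and 0.638% [0.517 to 0.786] of 2i-only regions. With the H3K4me3 list of mESC-ser, which had 11002 peaks against 19362, the shares were 14.2%, 9.05% and 0.388%. For serum-only regions the mESC-2i value, and for 2i-only regions the mESC-ser value, describe H3K4me3 where H3K27me3 was not called and so are not bivalency, for which 9.05% [8.55 to 9.59] of serum-only and 0.638% of 2i-only regions are the values within 1 medium. The shares depended on the list size: over whole regions, H3K4me3 of either medium was present at 30.8% of shared, 17.3% of serum-only and 1.23% of 2i-only regions, and with the 5000 strongest peaks of each list at 70.8%, 59.2% and 6.40%. H3K18la stood apart from this order in both media, with serum-only windows above shared ones. In mESC-2i it was called at 15.2% [14.6 to 15.9] of serum-only windows, 5.85% [5.42 to 6.32] of shared and 0.498% [0.393 to 0.631] of 2i-only windows. In mESC-ser the corresponding shares were 10.4% [9.83 to 10.9], 8.51% [7.98 to 9.06] and 1.74% [1.53 to 1.97]. Serum-only regions therefore held H3K18la more often in mESC-2i, where H3K27me3 was not called, than in mESC-ser, and 2i-only regions held it more often in mESC-ser. The H3K18la lists were of similar length, 19057 and 19908 peaks, but covered 82.4 and 128 Mb.

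**Figure D2:**
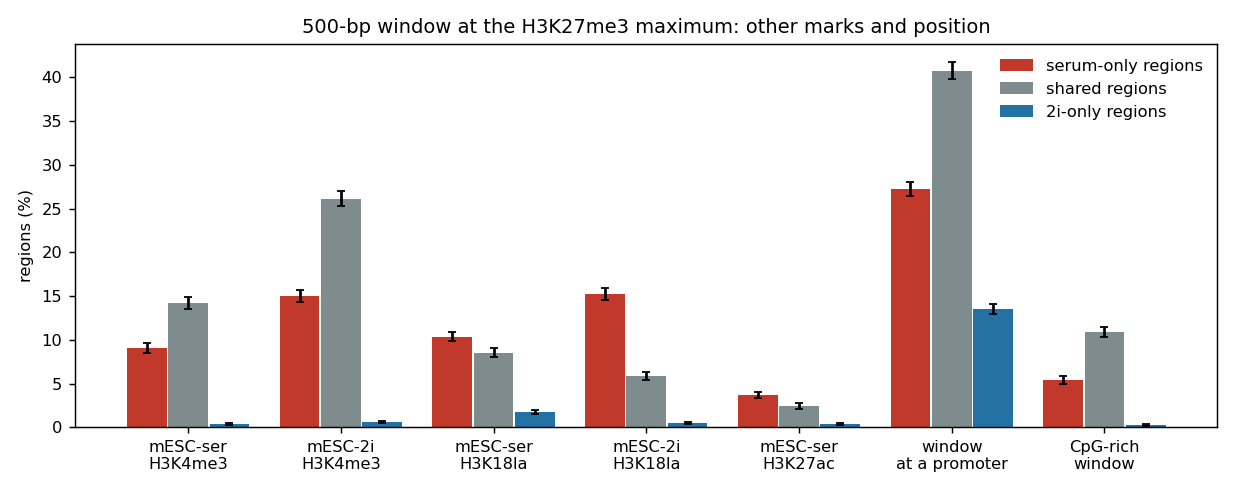
Share of serum-only, shared and 2i-only H3K27me3 regions (%) whose 500-bp window at the H3K27me3 maximum overlapped a peak of H3K4me3, H3K18la or H3K27ac, lay at a promoter or was CpG-rich, with 95% Wilson intervals as bars. For shared regions the window lies at the mESC-ser maximum. Shared regions lead for H3K4me3 (26.1% in mESC-2i). Serum-only regions lead for H3K18la (15.2% in mESC-2i and 10.4% in mESC-ser) and for H3K27ac (3.68% against 2.42% of shared regions). The 2i-only regions of the full lists stay under 2% for every mark.

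H3K27me3 lists of 5 differentiated cell types of the series (BMDM, bone marrow-derived macrophages; PIM, post-ischemia macrophages; MB, myoblasts; MT, myotubes; GAS, gastrocnemius muscle) were laid over the same windows. PIM had H3K27me3 at 41.2% [40.2 to 42.1] of shared, 23.5% [22.8 to 24.3] of serum-only and 10.2% [9.70 to 10.7] of 2i-only windows. Serum-only windows were also above 2i-only ones in GAS (26.2% and 22.2%) and BMDM (16.8% and 12.4%). Over whole regions, which differ in width between the classes, the GAS order was reversed (29.8% and 31.2%). In MT (18.9% and 21.6%) and MB (9.12% and 10.3%) 2i-only windows were above serum-only ones, and shared windows led in all 5 cell types, with 24.4% (MB) to 45.1% (GAS). A window marked in all 5 cell types was found in 11.3% [10.7 to 12] of shared, 3.47% [3.15 to 3.81] of serum-only and 1.15% [0.985 to 1.34] of 2i-only regions.

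At gene level, H3K27me3 was called at a promoter of 6205 of 53843 annotated genes (11.5%) in both media, of 3259 (6.05%) in mESC-ser only and of 2652 (4.93%) in mESC-2i only. These counts depended on the list size, with 5309 in mESC-ser only and 963 in mESC-2i only when the mESC-2i list was cut to equal bases, and 2290 and 1196 with the 5000 strongest peaks of each list. For the 21755 coding genes the counts were 4018 (18.5%) in both media, 1865 (8.57%) in mESC-ser only and 881 (4.05%) in mESC-2i only, and the counts of the gene lists below are read against these shares. A gene called in both media can carry the mark at different starts: the strongest promoter peaks of the media shared no base for 494 of the 4018. The nearest mESC-2i peak lay a median of 41.3 kb from the TSS of coding genes called in mESC-ser only, and 371 of the 1865 had one within 10000 bp. For the genes called in mESC-2i only the nearest mESC-ser peak lay a median of 26.7 kb away, and 254 of 881 had one within 10000 bp.

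The other marks at these coding genes are given beside the 14991 genes without promoter H3K27me3, because the lists of mESC-2i were longer for every mark. H3K18la was gained in mESC-2i (called there and not in mESC-ser) at 276 of the 1865 serum-only genes (14.8% [13.3 to 16.5]) and lost at 54 (2.90% [2.23 to 3.76]). Among the genes with no H3K27me3 these shares were 9.97% [9.5 to 10.5] and 3.36% [3.09 to 3.66]. For genes called in both media the balance was the reverse, with 4.98% [4.35 to 5.69] gained and 9.88% [9.0 to 10.8] lost, as it was for the 2i-only genes, with 3.29% [2.3 to 4.69] and 9.76% [7.97 to 11.9]. H3K4me3 was present in mESC-2i at 71.2% of the genes called in both media, 70.8% of serum-only genes and 25.9% of 2i-only genes, against 60.2% of genes without promoter H3K27me3.

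**Figure D3:**
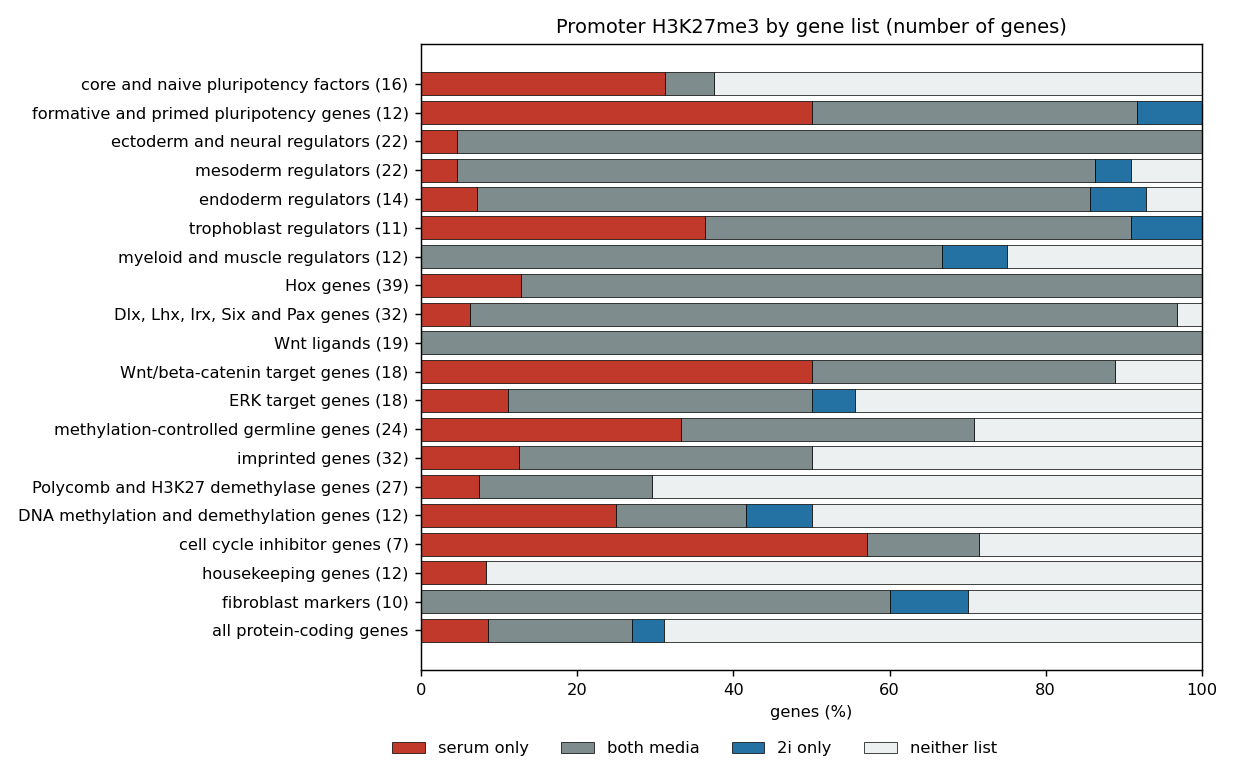
Share of the genes of each list (%, number of genes in brackets) with a promoter H3K27me3 peak in mESC-ser only, in both media, in mESC-2i only or in neither list, with all protein-coding genes in the last bar. Regulators of the germ layers and Hox genes are mostly called in both media, and the serum-only share is 50% for Wnt/β-catenin target genes against 8.57% of all coding genes.

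Regulators of the germ layers kept promoter H3K27me3 in both media. This held for 21 of 22 ectoderm and neural regulators, 18 of 22 mesoderm regulators, 11 of 14 endoderm regulators, 29 of 32 genes of the Dlx, Lhx, Irx, Pax and sine oculis-related families and all 19 Wnt ligand genes. Pax6, a regulator of eye and forebrain development, lay under peaks of 35.7 kb in mESC-ser and 29.1 kb in mESC-2i. Sox1, a marker of neural precursors, had 32.7 kb in mESC-ser and 14.9 kb in mESC-2i. The heart and limb regulator Hand2 had 45.9 kb and 7.78 kb, while Foxc2, a regulator of mesenchymal development, had 23.0 kb and 57.8 kb. The median percentile of the regulators called in both media was 99 in mESC-ser and 97 in mESC-2i for ectoderm, 98.4 and 91.7 for mesoderm and 98.7 and 94.6 for endoderm, against 88.9 and 82.1 over all coding genes called in both media. Some members lay lower in mESC-2i, such as Mixl1 at percentile 29.4 and Gsc at 30.5, both named after their values were seen. The change of width went in either direction among genes called in both media, with 12 of the 21 ectoderm, 11 of the 18 mesoderm and 9 of the 11 endoderm regulators wider in mESC-ser, against 1743 of 4018 coding genes (43.4%).

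A few germ layer regulators were called in mESC-ser only. Gbx2, a regulator of the midbrain-hindbrain boundary, lay under a 17.8 kb peak of percentile 99.1 in mESC-ser, and the nearest mESC-2i peak was 4.84 kb from its TSS. Msx2, a target of BMP signalling, had 11.3 kb at percentile 96.4 with the nearest mESC-2i peak at 7.45 kb, and Hhex, an endoderm and blood regulator, had 4.20 kb at percentile 81.9 with the nearest at 107 kb. The only members called in mESC-2i only were the hepatocyte regulator Hnf4a, with 15.7 kb at percentile 94.4 and no mESC-ser peak within 36.4 kb, and the somite regulator Meox1, with 2.74 kb at percentile 39.8 and a mESC-ser peak 4.07 kb from its TSS. Hnf4a carried neither H3K4me3 nor H3K18la in either medium, while Gbx2 and Hhex carried both marks in both media. Msx2 carried H3K18la in both media and H3K4me3 in mESC-2i only, and Meox1 carried H3K18la and H3K27ac in mESC-ser and no H3K4me3.

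The Hox genes, which set position along the body axis, were covered broadly by H3K27me3 in mESC-ser and less so in mESC-2i. Peaks of mESC-ser covered 95.3% of the Hoxa cluster (chr6:52155590-52260880, mm10), 81.3% of Hoxb (chr11:96194316-96368256), 97.3% of Hoxc (chr15:102921103-103036852) and 96.0% of Hoxd (chr2:74668310-74765142), measured from the first to the last Hox gene. Peaks of mESC-2i covered 66.4%, 52.8%, 37.9% and 63.1%. Every cluster was therefore marked over fewer bases in mESC-2i, in contrast to the list as a whole, and the pooled share went from 90.9% in mESC-ser to 54.2% in mESC-2i. With the 5000 strongest peaks of each list these shares were 89.1% and 40.3%.

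H3K4me3 showed the opposite at the Hox clusters. Its peaks covered 4.72%, 1.72%, 1.59% and 0% of the 4 clusters in mESC-ser and 40.5%, 16.5%, 36.6% and 33.5% in mESC-2i. A promoter H3K4me3 peak was called at 2 of 39 Hox genes in mESC-ser and at 36 in mESC-2i, and H3K18la at 4 and 13. Over all 4018 coding genes with H3K27me3 in both media H3K4me3 was called at 45.5% in mESC-ser and 71.2% in mESC-2i, and H3K18la at 26.9% and 22.0%. Promoter H3K27me3 itself was called in both media at 34 of the 39 genes and in mESC-ser only at 5, among them Hoxc12 and Hoxc13, which lay under the same mESC-ser peak. With the mESC-2i list cut to equal bases 31 were called in both media and 8 in mESC-ser only, and with the 5000 strongest peaks of each list 24 and 15. The widest merged region of all, 113 kb, held the coding promoters from Hoxb2 to Hoxb9 and was a single peak in mESC-ser and 2 peaks over 80.9 kb in mESC-2i. Of the 34 genes called in both media, 31 lay under a wider peak in mESC-ser, though neighbouring Hox genes share peaks and are not separate measurements.

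**Figure D4:**
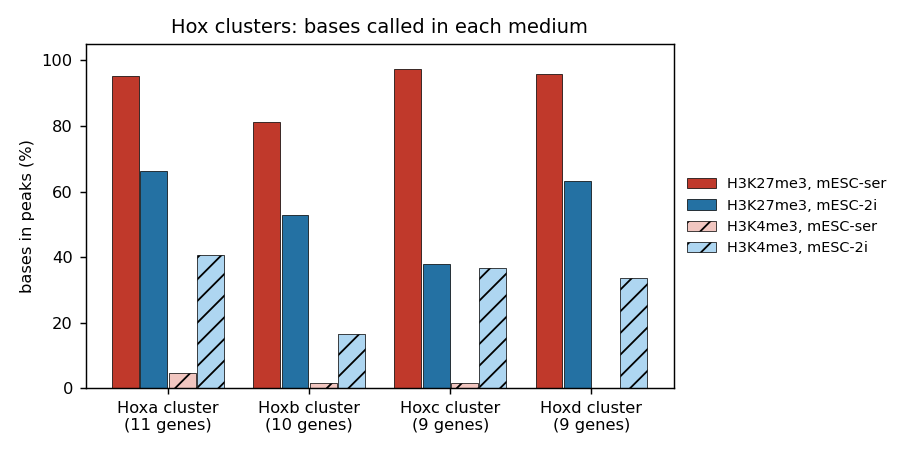
Share of bases (%) of the Hoxa, Hoxb, Hoxc and Hoxd clusters in H3K27me3 peaks (plain bars) and H3K4me3 peaks (hatched bars) of mESC-ser and mESC-2i. H3K27me3 covers 81.3% to 97.3% in mESC-ser and 37.9% to 66.4% in mESC-2i, while H3K4me3 covers at most 4.72% in mESC-ser and at least 16.5% in mESC-2i.

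Target genes of Wnt/β-catenin signalling, the pathway that the GSK3 inhibitor of 2i activates, were often called in mESC-ser alone. Of 18 targets, 9 had promoter H3K27me3 in mESC-ser only (50% against 8.57% of coding genes), 7 in both media and 0 in mESC-2i only. Of the 9, 8 carried H3K4me3 in mESC-ser and all 9 in mESC-2i, and H3K18la was called at 6 in mESC-ser and 8 in mESC-2i. Cdx1, a homeobox gene of the posterior body, lay under a mESC-ser peak of 20.5 kb (percentile 98.9), and the nearest mESC-2i peak was 14.9 kb from its TSS. Lef1, a transcription factor that binds β-catenin, lay under 16.5 kb (percentile 98.2) with the nearest mESC-2i peak at 31.0 kb. The transcription factor gene Sp5 had 10.7 kb (percentile 98.1) and 73.9 kb.

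The other named serum-only targets were the following. Dkk1, a secreted inhibitor of the Wnt co-receptor, had a mESC-ser peak of 5.08 kb (percentile 92.3) and the nearest mESC-2i peak at 96.4 kb. Notum, which inactivates Wnt proteins, had 7.72 kb (percentile 86.5) and 118 kb, and Axin2, a scaffold of the β-catenin destruction complex, had 4.94 kb (percentile 86.1) and 30.9 kb. At Sp5 and Dkk1 H3K18la was called in mESC-2i and not in mESC-ser. Other targets kept the mark in both media, among them Cdx2 (27.2 kb in mESC-ser and 15.6 kb in mESC-2i), the mesoderm regulator T (18.9 and 8.73 kb) and the pathway inhibitor genes Nkd1 (11.2 and 29.6 kb), Nkd2 (5.54 and 17.0 kb) and Rnf43 (4.63 and 7.21 kb). The related inhibitor gene Znrf3 was called in neither list, and Nkd2, Rnf43 and Znrf3 were named after their values were seen. With the 5000 strongest peaks of each list 7 targets were serum-only and 0 were 2i-only, where 2290 and 1196 of all 53843 genes were. Coding genes were not counted apart at that setting. In the full lists other genes were less often serum-only than coding ones (4.34% against 8.57%). All 19 Wnt ligand genes, in contrast, were called in both media, and Wnt3 lay under 55.7 kb in mESC-ser and 51.7 kb in mESC-2i.

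ERK target genes, the readout of the pathway blocked by the MEK inhibitor, had single-medium shares near those of all coding genes. Of 18, 7 were called in both media, 2 in mESC-ser only (Spred1 and Fos, 11.1% against 8.57%), 1 in mESC-2i only (Spry4, 5.56% against 4.05%) and 8 in neither list. The mESC-2i peak over Spry4, an inhibitor of the pathway, was 7.48 kb wide at percentile 64.8, and the nearest mESC-ser peak was 117 kb away. H3K4me3 and H3K18la were called at its promoters in both media.

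Of the 16 core and naïve pluripotency factors 10 had no promoter H3K27me3 in either list. Esrrb, an orphan nuclear receptor of the naïve network, was called in both media, with 10.1 kb in mESC-ser and 13.0 kb in mESC-2i. Tbx3, Dppa3, Prdm14, Nr5a2 and Klf4 were called in mESC-ser only, which is 31.2% of the list, and 3 factors were serum-only with the 5000 strongest peaks of each list. The T-box factor Tbx3 lay under 10.5 kb (percentile 93.3), the germ cell and maternal factor Dppa3 under 5.02 kb (percentile 89.5) and Prdm14, a repressor of primed genes, under 6.77 kb (percentile 88.6). Nr5a2 and Klf4 had weaker peaks, of 2.74 kb (percentile 66.3) and 1.78 kb (percentile 36.7). The nearest mESC-2i peaks lay 10.3 kb from a TSS of Dppa3 and 69.0 to 131 kb from those of the other 4. All 5 genes carried H3K18la in both media, and Dppa3 carried H3K4me3 in mESC-2i only.

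All 12 formative and primed genes were marked in at least 1 medium. Pou3f1, Fgf5 and Cdh2 were among the 5 called in both media, and all 5 lay under the wider peak in mESC-ser. The peak over Pou3f1 was 18.1 kb in mESC-ser and 8.81 kb in mESC-2i, and that over Fgf5, a marker of the post-implantation epiblast, 7.52 and 5.85 kb. A further 6 were called in mESC-ser only, and each of these carried H3K4me3 and H3K18la in both media. They included Zic2 (8.20 kb, percentile 97.3, nearest mESC-2i peak at 3.79 kb), Foxd3 (3.5 kb, percentile 78.7, 122 kb) and the de novo DNA methyltransferase genes Dnmt3a (5.06 kb, percentile 79.9, 2.09 kb) and Dnmt3b (5.42 kb, percentile 73.4, 55.5 kb). Dnmt3l, which encodes their catalytically inactive cofactor, went the other way, with a mESC-2i peak of 12.7 kb (percentile 86.8) and no mESC-ser peak within 35.4 kb.

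Cell cycle inhibitor genes were also called mainly in mESC-ser alone. Cdkn2a, Cdkn2b, Cdkn2c and Cdkn1a, which restrain cyclin-dependent kinases, were called in mESC-ser only (4 of 7), and none was called in mESC-2i only. Cdkn2a, which encodes p16 and p19Arf, had a 15.8 kb peak (percentile 98.8), and the nearest mESC-2i peak was 4.83 kb from a TSS. Cdkn2c had 11.7 kb (percentile 97.4) and 5.87 kb, and Cdkn2b, a neighbour of Cdkn2a, had 3.5 kb (percentile 88.6) and 33.7 kb. H3K18la was called in mESC-2i and not in mESC-ser at Cdkn2a and Cdkn2b. The imprinted inhibitor gene Cdkn1c kept wide domains in both media, 50.8 kb in mESC-ser and 55.3 kb in mESC-2i.

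Trophoblast regulators were called in both media at 6 of 11 genes, each under the wider peak in mESC-ser, in mESC-ser only at 4 and in mESC-2i only at 1. Gata3 had 21.6 kb in mESC-ser and 17.4 kb in mESC-2i. The serum-only genes were Tfap2c (9.43 kb, percentile 94.1), Krt8 (12.2 kb, percentile 91.8), Tead4 (3.86 kb, percentile 76.1) and Esx1. Elf5, a trophoblast stem cell factor, had a mESC-2i peak of 5.19 kb (percentile 50.8) and a mESC-ser peak 4.17 kb from a TSS. Of 12 myeloid and muscle regulators 8 were called in both media, among them Tal1 with 28.7 and 20.2 kb, and Csf1r, the receptor for macrophage colony-stimulating factor, was called in mESC-2i only (20.1 kb, percentile 96.1).

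Germline genes that DNA methylation keeps silent in somatic cells were also called more often in mESC-ser alone than in mESC-2i alone in the full lists. Of 24, 9 were called in both media, 8 in mESC-ser only and 0 in mESC-2i only. The serum-only peaks were 1.01 to 3.27 kb wide over the 6 strongest, which were Fkbp6, Smc1b, Syce1, Ddx4, Dazl and Brdt, at percentiles of 39.4 to 71.4. None of the 8 carried H3K18la in either medium. This count depended on the list size, because with the 5000 strongest peaks of each list 1 gene was serum-only and 2 were 2i-only, and with the mESC-2i list cut to equal bases 13 were serum-only. Mov10l1, which acts in piRNA production, was called in both media under 1.84 kb in mESC-ser and 14.0 kb in mESC-2i, and Sycp2, a gene of the meiotic chromosome axis, under 12 kb and 18.5 kb.

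Imprinted genes were called in both media at 12 of 32, in mESC-ser only at 4 (Plagl1, Igf2r, Peg10 and Phlda2) and in mESC-2i only at 0. Grb10 had wide domains of 49.6 and 44.3 kb, while the peak over Igf2, a fetal growth factor, was 23.7 kb in mESC-ser and 7.96 kb in mESC-2i. Of 27 genes for Polycomb proteins and H3K27 demethylases, 19 were called in neither list and 6 in both. The PRC1 gene Cbx8 was among the latter, with 35.7 kb in mESC-ser and 7.78 kb in mESC-2i, and Bmi1, also of PRC1, was serum-only with 10.3 kb (percentile 95.9). Among 12 genes of DNA methylation and demethylation, Dnmt3a, Dnmt3b and Gadd45b were called in mESC-ser only, Dnmt3l in mESC-2i only and 2 in both media, and all 12 carried H3K4me3 and H3K18la in both media. Housekeeping genes had the mark at 1 of 12 (B2m, in mESC-ser only).

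Gene families were counted whole, and the Sox, Fox, T-box and ligand families hold some members of the lists above. Of 1135 olfactory receptor genes 26 were called in both media, 32 in mESC-ser only and 12 in mESC-2i only, and of 329 vomeronasal receptor genes 1 was called in each medium alone. Clustered protocadherin genes, which give neurons surface identity, were called in both media at 46 of 57 and in mESC-ser only at 10. Zinc finger genes named Zfp were called in both media at 33 of 394, in mESC-ser only at 16 and in mESC-2i only at 6. Among Sox genes 12 of 19 were called in both media and 4 in mESC-ser only, among Fox genes 26 of 44 and 5, with 1 in mESC-2i only, and among T-box genes 9 of 13 and 1, with 2 in mESC-2i only. No Sox gene and no clustered protocadherin gene was called in mESC-2i only. The combined Wnt, Fgf and Bmp ligand genes had 37 of 53 in both media, 8 in mESC-ser only and 2 in mESC-2i only.

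At coding promoters, the widest serum-only region, 27.1 kb at Zmiz1 (chr14:25440581-25467636), lay at a gene for a transcriptional coactivator and was followed by 24.5 kb at Ntn1, which encodes an axon guidance protein, 23.6 kb at Slc9a9 and 21.9 kb at Slc45a3. The widest 2i-only region was 40.8 kb at Arsg (chr11:109516356-109557170), a lysosomal sulfatase gene, followed by 36.9 kb at Cotl1, 35.6 kb at Spsb1 and 33.1 kb at Cdh23. None of these 4 2i-only regions overlapped an H3K4me3 peak in either medium, whereas 3 of the 4 serum-only ones overlapped one in both. Arsg, Cotl1 and Spsb1 overlapped H3K18la in mESC-ser and not in mESC-2i. Zmiz1 and Arsg have several annotated starts and counted as genes called in both media, because a peak of the other medium lay at another start.

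The 4 widest shared regions at coding promoters differed in direction: that at the Hoxb genes was narrower in mESC-2i, 1 changed little and 2 were extended in mESC-2i. At Lmx1b, a regulator of limb and dopamine neuron development, 91.8 kb was called in mESC-ser and 89.7 kb in mESC-2i. At Rbfox3, which encodes the neuronal splicing factor NeuN, 4 mESC-ser peaks over 26.3 kb stood within a single mESC-2i peak of 93.9 kb. At Kif26a 6 peaks over 20.8 kb stood within one of 90.9 kb. When the unscaled totals of both lists were added, the shared regions of largest signal at coding promoters were at the predicted genes Gm10800 (chr2:98666238-98667724) and Gm10719 (chr9:3006072-3036412), where 66.7% and 96.5% of the bases were soft-masked as repeats against 34.3% of the genome. Within mESC-ser alone, the Hoxb region (total signal 6122484) and Lmx1b (4167036) were above Gm10800 (3832265) and Gm10719 (2741186), and within mESC-2i Gm10800 (9657078) and Gm10719 (7936651) were above Lmx1b (3259302) and the Hoxb region (2796154). Both repeat-rich regions overlapped peaks of H3K4me3, H3K18la and H3K27ac as well, with H3K4me3 at Gm10719 called in mESC-2i only, and the part of repeats in these values was not tested.

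The X chromosome departed from the autosomes, where preparation and medium cannot be told apart either, and the number of X chromosomes in the cultures was not measured here. On autosomes, mESC-2i had 1.43 (chromosome 3) to 1.90 (chromosome 8) times as many H3K27me3 bases as mESC-ser, with a median of 1.70. On X the ratio was 0.531, from 1.71 Mb in mESC-ser and 0.910 Mb in mESC-2i, and X had 527 and 219 peaks. Of the X regions, 354 were serum-only, 160 shared and 48 2i-only, that is 63.0%, 28.5% and 8.54%, against 32.4%, 28.9% and 38.7% on autosomes. Of 948 coding genes on X, 80 were called in both media, 76 in mESC-ser only and 7 in mESC-2i only. The other marks had more bases on X in mESC-2i than in mESC-ser. H3K4me3 had 153 peaks in mESC-ser and 556 in mESC-2i, with a ratio of bases of 2.13 against 1.02 to 1.41 on autosomes. H3K18la had 295 and 419 peaks with a ratio of 1.93, which is close to the upper end of the autosomal range of 1.27 to 1.91. The X ratio for H3K27me3 over the autosomal one was 0.313, and it stayed below 1 with the 5000 strongest peaks of each list (0.0529) and with the mESC-2i list cut to equal bases (0.132).

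**Figure D5:**
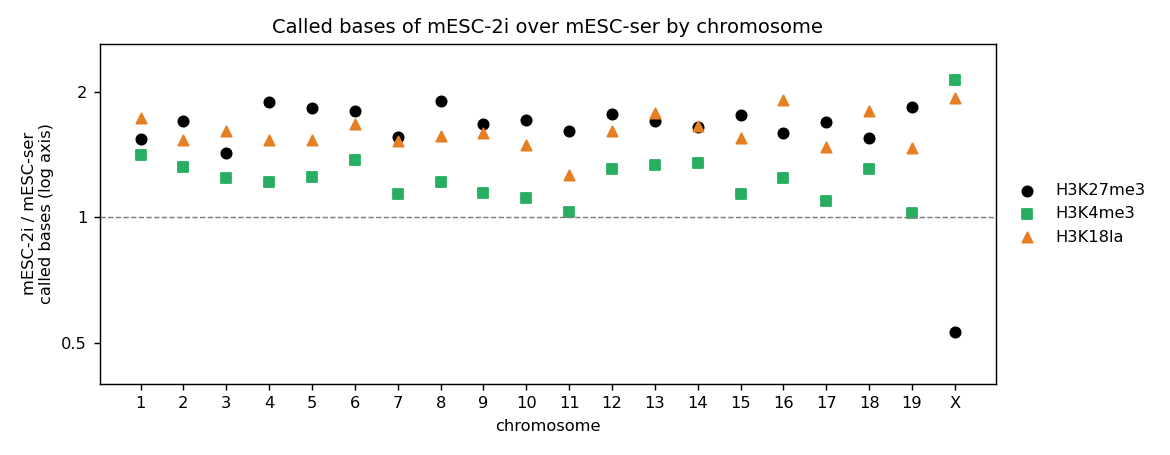
Called bases of mESC-2i divided by those of mESC-ser (log axis, dashed line at 1) for each chromosome and for H3K27me3 (circles), H3K4me3 (squares) and H3K18la (triangles). For H3K27me3 the autosomes lie between 1.43 and 1.90 and X at 0.531. X is above every autosome for H3K4me3 (2.13) and close to the highest autosome for H3K18la (1.93 against 1.91).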

How the data were processed

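CUT&Tag of H3K27me3 was analysed in 2 mESC-ser and 2 mESC-2i samples of E14 cells, out of 41 samples in 24 groups. Per the labels and the methods of the study, the authors trimmed reads with Trim Galore 0.6.6, aligned them to mm10 with Bowtie2 2.4.4, computed coverage with bedtools 2.30, joined the replicates and called peaks with SEACR 1.3 in stringent mode, keeping the top 1% without a control. The deposited lists give each peak's total signal and maximum signal as whole numbers, so coverage was not scaled for depth. Sequencing depth was not used here. Pooling removes the spread between replicates, and shares carry 95% Wilson intervals (counting error only).

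Overlapping peaks of the autosomes (1 to 19) and X were joined at 1 bp of overlap with Python 3.11.15, numpy 2.4.6 and pandas 2.3.3. The interval code was tested on simulated lists and against bedtools 2.31.1. Promoters were 2000 bp on each side of the TSSs of 53843 GENCODE vM21 genes. All peak ends lay within the GRCm38 chromosomes (mm10 is GRCm38), and sequences came from RefSeq GRCm38.p6. Gene lists were written by hand, and their members were named where called in 1 medium only (up to 6 a list by total signal) or in both (up to 3). In addition the 4 widest and the 4 strongest regions per class (by total signal, summed unscaled over both lists for shared regions) at coding promoters were named by the coding TSS nearest to their centre. The regions, lists and rules were chosen with earlier results of these data known. Alternatives changed list size, merging gap, minimum width, overlap, promoter and chromosomes. Some members that the naming rule selects are not reported here.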

Additional observations from a re-analysis of the deposited data

Results flagged for a closer look

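Peaks on chromosome Y were outside every comparison. The mESC-ser list held 11 H3K27me3 peaks there over 23.1 kb, and the mESC-2i list held 3 over 8.87 kb. The H3K4me3 lists held 4 peaks on Y in mESC-ser and 19 in mESC-2i, and the H3K18la lists 6 and 20. These values were not tested between media.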

How the results depend on the processing

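No paired analysis was possible because the replicates were pooled before peak calling, and for the same reason no replicate could be left out. Sequencing depth was not used here. With the 5000 strongest peaks of each list, 29.6% of regions were shared, promoters were touched by 71.3% of serum-only, 40.7% of 2i-only and 81.5% of shared regions, 1196 genes were called in mESC-2i only and 2579 in both media, and median widths were 5791, 11168 and 13105 bp for serum-only, 2i-only and shared regions. With the mESC-2i list cut to the bases of the mESC-ser list (8242 peaks left), 21.7% were shared, promoter shares were 34.0%, 31.1% and 62.0% in the same order, 5309 genes were called in mESC-ser only and 963 in mESC-2i only, and widths were 2036, 8371 and 9906 bp. With peaks within 1000 bp merged, 30.6% of regions were shared, 54.8% of shared regions touched a promoter, and widths were 1990, 3942 and 7082 bp. Promoters of 1000 bp on each side gave shares of 25.6%, 17.8% and 49.2%. The TSSs of protein-coding transcripts alone gave 21.0%, 7.50% and 38.4% and counts of 1863 genes in mESC-ser only, 797 in mESC-2i only and 3805 in both media. The other 24 of the 56 planned values moved by less than their interval or by less than 1.5 times (10% for the Jaccard index). Of 87 values under alternatives added after seeing the data, 65 stayed, 20 moved and 2 changed sign, both for the median log2 ratio of bases at shared regions with H3K4me3, to 0.0094 (equal bases) and 0.051 (5000 peaks). A list with fewer peaks has fewer weak regions by construction, and the cause of the other moves was not tested.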
